A study of Mus musculus with 5 samples.

Results

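The kinesins measured here are the genes whose symbol begins with Kif followed by a digit or the letter c, taken from probe sets that carry that symbol alone. There were 40 such genes among 19938 genes with a probe set of their own. For a gene with several probe sets, the one with the highest mean signal over all 5 arrays stood for it. Of the 40, 13 were grouped as mitotic, 17 as transport and 9 as other kinesins, and Kif4-ps is a pseudogene. The genes Kifc1, Kifc5b and Kif28 were not analysed here, since no probe set carried any of these symbols alone.

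Kinesins are motor proteins that use ATP to walk along microtubules or to take their ends apart. Mitotic kinesins build the spindle, align and separate the chromosomes and complete the division of the cell, and the transcripts of many of them rise before mitosis. Transport kinesins carry vesicles, organelles and ciliary components, and several are best known from the axons and dendrites of neurons. Embryonic stem (ES) cells divide fast and hold few neuronal or ciliary specialisations.

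RNA came from mouse ES cells grown without feeder cells, in serum and LIF medium mixed with N2B27+2i medium, which contains inhibitors of kinases. The groups were asynchronous wild-type cells, with 3 arrays (WT 1 to WT 3), and asynchronous Dicer-deficient cells, with 2 arrays (KO 1 and KO 2), which the design text calls biological replicates. Dicer is the ribonuclease that releases mature microRNAs from their precursors. The early G1 cells and the further Dicer-deficient culture of the design text were not analysed here. The sources used here name no cell line, clone or method of deletion, so loss of Dicer and other differences between the 2 kinds of cell cannot be told apart.

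The values are normalized log2 signals from Affymetrix whole-transcript arrays. Array medians ran from 5.39 to 5.45, and precision is limited by how few arrays there are. The median over all probe sets and arrays, 5.40, is used below as a mark for dim signals, since no detection call was given. Dicer1 read 8.84, 8.82 and 8.85 in wild-type and 7.20 and 6.84 in Dicer-deficient cells, 3.52-fold lower (adjusted p = 0.000129 in limma), which checks the labels as far as its probe set reads the deleted part. ES cell markers were high, with a mean log2 signal over 12 genes of 10.34 to 10.54 in wild-type and 10.21 to 10.43 in Dicer-deficient arrays. Of 13 fibroblast markers, 8 were under the overall median in both groups. A gene was called where limma's Benjamini-Hochberg adjusted p over all 19938 genes was under 0.05. Of the 12 ES cell markers, 1 was called higher (Klf2) and 3 lower (Klf4, Esrrb and Tdgf1). This share of 33.3% stood beside 17.1% of all genes and 27.9% of those above the overall median.

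Division genes often carry the cell cycle homology region (CHR), TTTGAA or TTCGAA, near their start, and CCAAT boxes, and both were searched on both strands in the 250 bases before each start site. A promoter was found for 31 of the 40 genes in the RefSeq table of GRCm38.p6. Either form of the CHR stood before 5 of 12 mitotic, 1 of 11 transport and 3 of 8 other kinesin genes, and before 19.6% of all genes in the table. CCAAT stood before 7 of 12 mitotic, 3 of 11 transport and 4 of 8 other kinesin genes, and before 37.5% of all genes. The following 30-base stretches are shown because they belong to the mitotic kinesins called below and to division kinesins that were not called. The motif, or its reverse complement, is in capitals.
Kif23, which rose, CCAAT, chr9:61946800-61946829, minus strand: cccttcgccgcaggcggccgctgATTGGcc
Kif18b, which fell, CCAAT, chr11:102925137-102925166, minus strand: gccgggcggtgaCCAATgagaagcgcggat
Kif18b, second CCAAT, chr11:102925160-102925189, minus strand: cttaggaaacagCCAATcagcgagccgggc
Kif14, which fell, CHR, chr1:136467608-136467637, plus strand: ggaggtcctgtcTTTGAAgtctgcagtgtc
Kif14, CCAAT, chr1:136467744-136467773, plus strand: aagtggtttagtCCAATgcatcctctgaga
Kif11, not called, CHR, chr19:37376351-37376380, plus strand: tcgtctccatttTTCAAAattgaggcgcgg
Kif15, not called, CHR, chr9:122951050-122951079, plus strand: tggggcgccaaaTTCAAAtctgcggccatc
Kif22, not called, CHR, chr7:127042421-127042450, minus strand: ggggccccggtaaTTCAAAagagagaagcg
In Kif11, Kif15 and Kif22 these motifs began 19, 19 and 17 bases before the start site, and Kif15 and Kif22 held another CHR at 234 and 215 bases. In Kif14 the CHR began 228 bases before it. Neither form of the CHR was found in these windows of Kif23 and Kif18b. These matches describe the letters of the windows only.

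Dicer-deficient cells held more transcript of Kif23 among the mitotic kinesins and of Kif1b, Kifc3, Kif13a and Kif3a among the transport kinesins. They held less of the mitotic Kif14 and Kif18b, of the transport kinesin Kif21b and of the ciliary and centriolar kinesins Kif7 and Kif24. In all, 5 of the 40 genes rose, 5 fell, and no change was called in the other 30. The called share was 25%, beside 17.1% of all genes tested. Among genes whose mean signal exceeded the overall median it was 33.3% of 30 kinesins, beside 27.9% of 11201 genes. No measured change reached 2-fold, and the log2 changes ran from -0.79 for Kif21b to 0.73 for Kif23, with a median of -0.01 beside 0.01 for all genes. Kif23 and Kif1b kept their calls whichever array was left out, and 3 of the 10 were called when each gene was tested by limma's treat against a change of 1.2-fold.

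**Figure D1:**
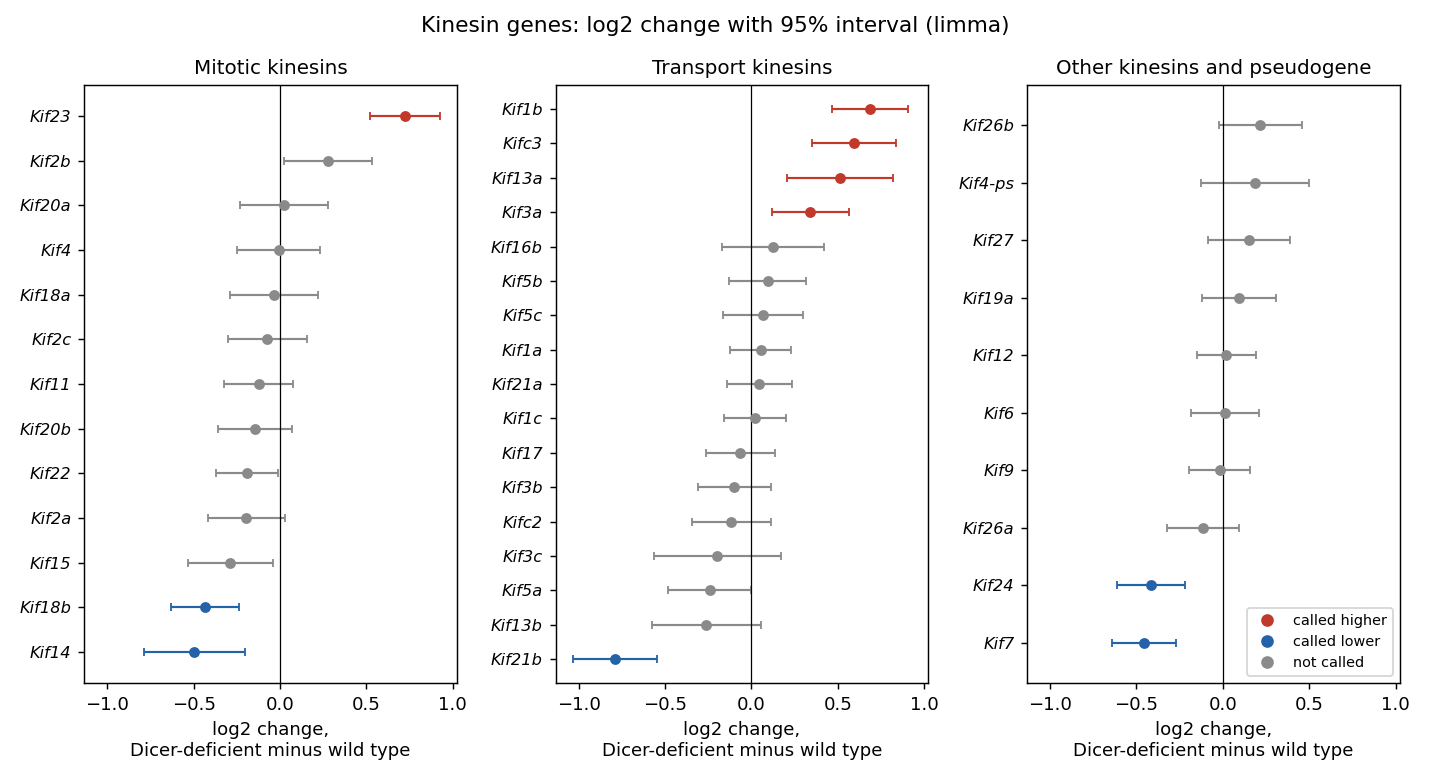
The log2 change of each of the 40 kinesin genes, Dicer-deficient minus wild type, is a point with its 95% interval from limma, in panels for mitotic, transport and other kinesins. Red points were called higher (5 genes), blue points were called lower (5 genes) and grey points were not called (30 genes).

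Of the 13 mitotic kinesins, 1 rose (Kif23), 2 fell (Kif14 and Kif18b) and 10 did not pass the test. The called share was 23.1%, beside 17.1% of all genes, and 25% of the 12 above the overall median, beside 27.9% of all genes above it. The median log2 change of the 13 was -0.12, and 10 of the 13 changes lay below 0, beside 9562 of 19938 among all genes. Above the overall median, 10 of 12 lay below 0, beside 5697 of 11201 genes. In 5 genes both Dicer-deficient arrays lay below all wild-type arrays, beside 19.9% of all genes, and in 2 both lay above, beside 20% of all genes. For all 40 kinesins such separation was seen in 18, or 45%, beside 39.9% of all genes. Among genes above the overall median it was seen in 50% of 30 kinesins and 50% of 12 mitotic kinesins. These shares were under the 55.4% of all 11201 genes above that median.

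Kif23 is the motor subunit of centralspindlin, the complex that bundles microtubules between the separating chromosomes and sets the place of cell division. Its signal was 9.44, 9.40 and 9.27 in wild-type and 10.05 and 10.14 in Dicer-deficient cells. The groups did not overlap, and the step between them was wider than the range within either group. The log2 change was 0.73 (SE 0.0865, adjusted p = 0.00147), a 1.65-fold higher level. The other kinesins of its subfamily, kinesin-6, are the central spindle motor Kif20a and the abscission motor Kif20b. Kif20a read 9.37, 9.41 and 9.15 against 9.23 and 9.44, with the groups overlapping. Kif20b read 8.59, 8.51 and 8.36 against 8.37 and 8.32, also overlapping. Their changes were 0.025 (95% interval -0.23 to 0.28) and -0.14 (-0.36 to 0.07), and the difference from Kif23 was not tested.

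Kif14 is a cytokinesis motor that binds citron kinase. It read 7.70, 7.45 and 7.29 in wild-type and 7.05 and 6.92 in Dicer-deficient cells. The groups did not overlap, but the wild-type values alone spanned nearly as much as the gap between the group means. It was 1.41-fold lower (log2 change -0.495, SE 0.125, adjusted p = 0.033). Leaving out WT 1, WT 2, KO 1 or KO 2 ended the call (adjusted p = 0.073, 0.123, 0.186 and 0.279). A second Kif14 probe set read between 3.49 and 3.69 on all arrays, below their lower quartiles of 4.14 to 4.18. With the mean of both probe sets the log2 change was -0.24 (adjusted p = 0.155).

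Kif18b limits the length of the microtubules that reach from the spindle poles to the cell cortex. It read 8.79, 8.72 and 8.72 in wild-type and 8.23 and 8.39 in Dicer-deficient cells, a tight wild-type group well above both Dicer-deficient values. It was 1.35-fold lower (log2 change -0.43, SE 0.084, adjusted p = 0.0114). Leaving out WT 2, KO 1 or KO 2 ended the call (adjusted p = 0.0559, 0.101 and 0.0502). Its paralog Kif18a, which aligns chromosomes at the spindle equator, read 7.53, 7.34 and 7.19 against 7.34 and 7.30. Those groups overlapped, and the change was -0.03 (95% interval -0.29 to 0.22), or 0.055 without WT 1.

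The other spindle motors did not pass the test. Kif15, which can stand in for Kif11, read 8.55, 8.29 and 8.28 against 8.14 and 8.03, and Kif22, which pushes chromosome arms, read 8.91, 8.86 and 8.81 against 8.70 and 8.64. In both genes the Dicer-deficient arrays lay below all wild-type arrays, by a small step (adjusted p = 0.116 and 0.159 in limma). Kif2a, a microtubule depolymerase of spindle poles that also acts in neurons, separated the same way, with a log2 change of -0.195 (adjusted p = 0.246). Kif11, the motor that slides spindle microtubules apart, read 9.04, 9.06 and 8.97 against 8.82 and 8.98. Those groups overlapped, and the 95% interval of its change ran from -0.32 to 0.07. For the chromokinesin Kif4 the interval was -0.25 to 0.235 and for the centromeric depolymerase Kif2c -0.30 to 0.155. Kif2b, a depolymerase whose signals of 3.98 to 4.37 were under the overall median, had a change of 0.28 (adjusted p = 0.146). The intervals of Kif11, Kif4 and Kif2c leave room for a fall of the size measured in Kif22.

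**Figure D2:**
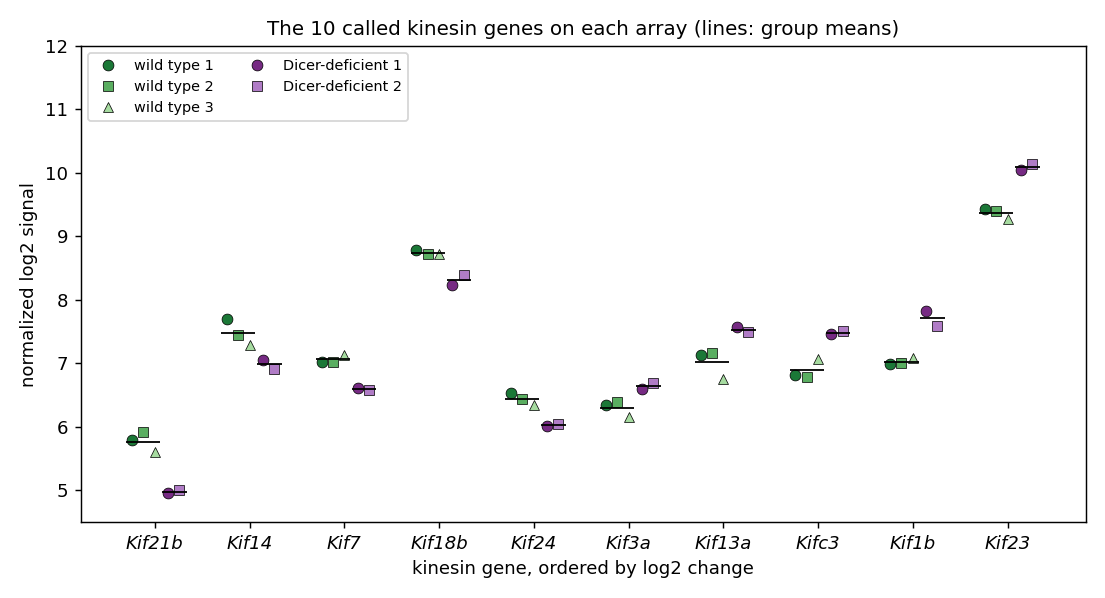
Normalized log2 signal (vertical axis) of the 10 called kinesin genes, ordered by log2 change, on each of the 3 wild-type and 2 Dicer-deficient arrays; horizontal lines are group means. In each gene the 2 Dicer-deficient points lie on 1 side of the 3 wild-type points, from Kif21b at the left, which fell most, to Kif23 at the right, which rose most.

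The wild-type arrays themselves differed across the mitotic kinesins. WT 1 was the highest of the wild-type arrays for 10 of the 13 genes and WT 3 the lowest for 12 of 13, beside 33.9% of all genes with WT 3 lowest. Set against each gene's wild-type mean, the median over the 13 genes was 0.09, 0.01 and -0.12 on wild-type arrays 1, 2 and 3, and -0.14 and -0.05 on Dicer-deficient arrays 1 and 2. WT 3 thus lay between KO 1 and KO 2, and KO 1 lay below all wild-type arrays by a step far smaller than the range among these. Genes that work with the mitotic kinesins ran alongside, with medians over 43 genes of 0.06, 0.02 and -0.11 in wild-type and -0.13 and -0.08 in Dicer-deficient arrays. The ES cell markers had 0.10, 0.03 and -0.13 against -0.02 and -0.15. WT 3 was the lowest wild-type array for 34 of those 43 genes and 10 of 12 ES cell markers, but for 1 of 13 fibroblast markers. The share with WT 3 lowest among genes above the overall median was not computed. In a fit with array weights, WT 3 had the lowest weight, 0.496. The part of these array differences in the results for mitotic kinesins was not tested.

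**Figure D3:**
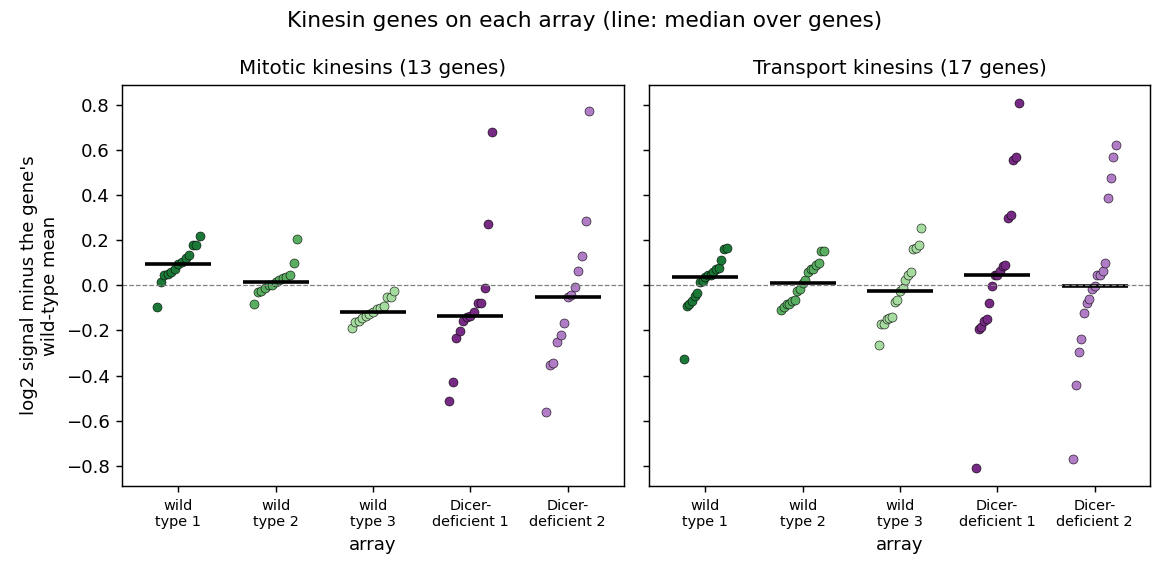
Log2 signal minus the gene's wild-type mean (vertical axis) on each array, for 13 mitotic kinesins (left) and 17 transport kinesins (right); points are genes and lines are medians. For mitotic kinesins the median is 0.09 on WT 1 and -0.12 on WT 3, the latter lying between the Dicer-deficient medians of -0.14 and -0.05.

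Of the 17 transport kinesins, 4 rose (Kif1b, Kifc3, Kif13a and Kif3a), 1 fell (Kif21b) and 12 did not pass the test. The called share was 29.4%, against 23.1% of mitotic kinesins, a difference of few genes that was not tested. Of all genes tested 8.48% were called higher and 8.6% lower. The median log2 change was 0.05, and -0.003 without KO 1.

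Kinesin-3 motors carry vesicles and organelles toward the microtubule ends at the cell edge. Kif1b, which moves mitochondria and synaptic vesicle precursors, read 6.99, 7.0 and 7.08 in wild-type and 7.83 and 7.59 in Dicer-deficient cells. The groups were far apart compared with the wild-type spread, and the level was 1.61-fold higher (log2 change 0.69, SE 0.0949, adjusted p = 0.00271). Kif13a, which carries endosomes and receptors, read 7.13, 7.17 and 6.75 against 7.57 and 7.49. Both Dicer-deficient values were above all wild-type values, and WT 3 was the lowest array. The level was 1.43-fold higher (log2 change 0.51, SE 0.132, adjusted p = 0.0356). The change was 0.38 without WT 3, and the call was lost without WT 1 (adjusted p = 0.0827), WT 2 (0.0728), KO 1 (0.283) or KO 2 (0.218).

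The nearest paralogs of these genes were not called. Kif1a, known from axons, read 5.30, 5.37 and 5.37 against 5.39 and 5.41, under the overall median on 4 of 5 arrays. Kif1c, a motor of vesicles and integrins, read 6.49, 6.43 and 6.42 against 6.51 and 6.43, with a 95% interval of the change from -0.16 to 0.20. Kif13b read 7.80, 7.65 and 7.47 against 7.56 and 7.20, overlapping and with a change of -0.26 (95% interval -0.58 to 0.06). Kif16b, a motor of early endosomes, read 6.40, 6.40 and 6.19 against 6.64 and 6.27, with a change of 0.125 that was -0.06 without KO 1. The differences between paralogs in their changes were not tested.

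Kifc3 is a kinesin that walks toward the minus end of microtubules and is known from the junctions of epithelial cells. It read 6.82, 6.78 and 7.07 in wild-type and 7.46 and 7.51 in Dicer-deficient cells, the latter above every wild-type array. The level was 1.51-fold higher (log2 change 0.595, SE 0.104, adjusted p = 0.00748), a call lost without KO 1 (0.104) or KO 2 (0.117). Of 12 markers of trophectoderm, the outer epithelium of the early embryo, 7 had changes above 0 and 5 below, with a median of 0.05. Their mean log2 signal over 12 genes was 6.18 to 6.26 in wild-type and 6.43 to 6.47 in Dicer-deficient arrays. Of the 12 genes, 3 were called higher (Krt8, Gata3 and Krt18) and 0 lower. This share of 25% stood beside 17.1% of all genes and 27.9% of those above the overall median. In 4 markers both Dicer-deficient arrays lay above all wild-type arrays, beside 20% of all genes, and in 2 both lay below, beside 19.9%. The former were the 3 called genes and Tead4, with a log2 change of 0.52 (adjusted p = 0.0519 in limma). The latter were Eomes and Ascl2, with log2 changes of -0.49 and -0.48 (adjusted p = 0.0977 and 0.0523 in limma). The part of these markers in the result for Kifc3 was not tested. Kifc2, a minus-end motor known from neurons, read 5.89, 5.91 and 6.14 against 5.83 and 5.90, overlapping.

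Kinesin-2 motors carry cargo along the cilium. The motor subunits Kif3a and Kif3b join the accessory protein encoded by Kifap3 in 1 heterotrimer. Kif3a read 6.35, 6.40 and 6.16 in wild-type and 6.60 and 6.69 in Dicer-deficient cells, without overlap and 1.27-fold higher (log2 change 0.34, SE 0.0963). Its adjusted p of 0.049 was the nearest to the threshold among the called kinesins, and the call was lost without any 1 of the 5 arrays (adjusted p from 0.075 to 0.283). Kifap3, named here because it binds Kif3a, read 7.62, 7.62 and 7.59 against 7.99 and 7.93 (log2 change 0.35, SE 0.0745, adjusted p = 0.0167). The call of Kifap3 was lost without WT 2 (0.0673), KO 1 (0.108) or KO 2 (0.0754). Kif3b read 7.14, 7.18 and 7.05 against 6.93 and 7.12, with overlap and a 95% interval of the change from -0.31 to 0.11. Kif3c and Kif17, the other kinesin-2 motors, had changes of -0.20 and -0.06 and were not called.

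Kif21b, a dendritic motor that also slows microtubule growth, fell most among all kinesins. It read 5.79, 5.92 and 5.6 in wild-type and 4.96 and 5.0 in Dicer-deficient cells (log2 change -0.79, SE 0.105, adjusted p = 0.00234). The groups were far apart, but the Dicer-deficient values were under the overall median, where signal above background has not been shown, so the size of the fall is uncertain and no fold is given. The call was lost without KO 1 (adjusted p = 0.0723) or KO 2 (0.0642). Its paralog Kif21a read between 5.14 and 5.27 on all arrays.

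Kinesin-1, the conventional kinesin that moves most kinds of cargo, had no called motor gene among 3 in limma, and 1 (Kif5a) with an unadjusted p under 0.05. Its widely expressed form Kif5b read 9.34, 9.37 and 9.13 in wild-type and 9.37 and 9.38 in Dicer-deficient cells, with a 95% interval of the change from -0.13 to 0.32. The neuronal forms were Kif5a, with a change of -0.24 (adjusted p = 0.173), and Kif5c, whose signals of 5.15 to 5.40 did not exceed the overall median. Neuron markers did not move together: 4 of 16 were called higher and 2 lower. This share of 37.5% stood beside 17.1% of all genes and 27.9% of those above the overall median. The mean log2 signal of the 16 was 6.23 to 6.33 in wild-type and 6.12 to 6.33 in Dicer-deficient arrays.

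Among the 9 other kinesins 0 rose and 2 fell, Kif7 and Kif24, a called share of 22.2% beside 17.1% of all genes. Among the 5 of them above the overall median it was 40%, beside 27.9% of all genes above it. Kif7 works at the tip of the primary cilium and regulates Hedgehog signalling. It read 7.03, 7.02 and 7.14 in wild-type and 6.62 and 6.59 in Dicer-deficient cells, 2 tight groups 1.37-fold apart (log2 change -0.46, SE 0.0795, adjusted p = 0.00716). A second Kif7 probe set read 6.68, 6.38 and 6.68 against 6.21 and 6.40, where the groups overlapped, and with the mean of both the log2 change was -0.37. Kif24, which sits at the centriole and restrains the growth of cilia, read 6.53, 6.44 and 6.35 against 6.01 and 6.04. It was 1.33-fold lower with no overlap (log2 change -0.415, SE 0.0844, adjusted p = 0.014). The call of Kif7 was lost without KO 1 (adjusted p = 0.0737) or KO 2 (0.0801), and that of Kif24 without WT 2 (0.0682), KO 1 (0.127) or KO 2 (0.105).

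The kinesins of motile cilia did not pass the test. Kif9, between 4.11 and 4.18, and Kif27, between 4.04 and 4.41, were dim, while Kif6 and Kif19a lay between 5.32 and 5.86, with group means above the overall median. Of 12 markers of multiciliated cells, 8 were under the overall median in both groups. Of the 12, 2 were called higher (Rsph1 and Rsph4a) and 0 lower, a share of 16.7% beside 17.1% of all genes. Rsph1 and Rsph4a had log2 changes of 0.55 and 0.72 (adjusted p = 0.0115 and 0.0222 in limma). Neither was called without WT 2, and Rsph4a was under the overall median on all arrays. The median change of the 12 was -0.02. Their mean log2 signal was at most 5.088 in wild-type and 5.125 to 5.128 in Dicer-deficient arrays. Kif12, Kif26a and Kif26b had changes of 0.02, -0.12 and 0.22. The pseudogene Kif4-ps read 4.20 to 4.73. In all, 10 of the 40 genes were under the overall median in both groups, and none of these 10 was called by limma, with 1 (Kif2b) at an unadjusted p under 0.05.

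The genes that kinesins work with were described from lists. Of 43 partners of mitotic kinesins 4 rose and 8 fell, with a median of -0.08, a called share of 27.9%. Of all genes tested 17.1% were called. None of the 43 was under the overall median in both groups, and of all genes above that median the same share, 27.9%, was called. Genes matched to the list in signal were not compared. Nek7, a kinase upstream of Kif11, read 7.09, 6.66 and 6.66 in wild-type and 8.08 and 8.09 in Dicer-deficient cells, 2.43-fold higher (adjusted p = 0.000903, and 0.0543 and 0.0536 without KO 1 and KO 2). Nek6 and Nek9, kinases of the same list, had log2 changes of -0.398, called lower, and -0.11, not called (adjusted p = 0.0167 and 0.445 in limma). The checkpoint gene Mad2l1 rose by 0.70 on the log2 scale. Birc5, of the chromosomal passenger complex, had a log2 change of -0.68, and the spindle protein Hmmr one of -0.67. The call of Birc5 was lost without either Dicer-deficient array (adjusted p = 0.0705 and 0.0878), and that of Hmmr without these (0.144 and 0.138) or WT 2 (0.0625). Racgap1, which completes centralspindlin together with Kif23, read 9.67, 9.63 and 9.41 against 9.40 and 9.67, with a change of -0.035 that was 0.02 after renewed quantile normalization. Cenpe, a mitotic kinesin of the kinetochore whose symbol lies outside the rule, read 8.09, 8.07 and 7.84 against 7.87 and 7.80 (log2 change -0.165, adjusted p = 0.362).

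Of 16 regulators of mitotic transcription, which include the complexes that act on the CHR and the CCAAT box, 5 rose and 2 fell, a called share of 43.8% beside 17.1% of all genes and 27.9% of those above the overall median. The pocket protein genes Rbl1 and Rbl2, whose products repress division genes, were 1.80-fold and 1.77-fold higher. Both calls were lost without either Dicer-deficient array (adjusted p from 0.0571 to 0.112). Lin37 of the same complex rose by 0.69 on the log2 scale, and Mybl2, an activator of division genes, had a change of -0.63. Foxm1, another activator, had 0.06 (adjusted p = 0.744).

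Of 26 kinesin light chains, adaptors and cargo proteins, 6 rose and 1 fell, with a median of 0.08. Their called share of 26.9% stood beside 17.1% of all genes and 27.9% of those above the overall median. Of the 26, 3 were under that median in both groups. Syne2, a protein of the nuclear envelope that kinesin-1 can pull on, read 6.49, 6.5 and 6.65 in wild-type and 9.25 and 9.12 in Dicer-deficient cells, 6.23-fold higher (log2 change 2.64, SE 0.0894, adjusted p = 6.95e-06). Adap1, a binding partner of Kif13b, was 1.78-fold higher and Trak2, the adaptor of kinesin-1 on mitochondria, 1.52-fold higher. The light chain gene Klc1 had a change of 0.27 (adjusted p = 0.0424). The scaffold gene Mapk8ip2 fell, with a change of -1.065, to signals of 5.22 and 4.97 that leave its size uncertain. The calls of Adap1 (0.066 and 0.0616) and Mapk8ip2 (0.0509 and 0.0751) were lost without KO 1 or 2, that of Trak2 without KO 2 (0.065), and that of Klc1 without any 1 of the 5 arrays (adjusted p from 0.0652 to 0.156).

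Dynein carries cargo the opposite way along microtubules. Of 29 dynein, dynactin and adaptor genes, 10 rose and 4 fell, a called share of 48.3% beside 17.1% of all genes and 27.9% of those above the overall median. The largest rises were those of the dynactin subunit Dctn4 (0.93), the adaptor Hook3 (0.91) and the centrosomal proteins Nin (0.85) and Ninl (0.80), and all of these calls held whichever array was left out. Of 22 intraflagellar transport genes, which encode cargo of kinesin-2, 0 rose and 3 fell, a called share of 13.6% that was under the 17.1% of all genes. The 3 were Ift27 at -0.68, Ift20 at -0.635 and Ift52 at -0.295. The call of Ift52 was lost without any 1 of the arrays (adjusted p from 0.0543 to 0.169), and that of Ift20 without KO 1 (0.077). Of 17 tubulin genes 2 rose and 0 fell, a share of 11.8%, also under that of all genes. These were Tubb2a, with a change of 0.75, and Tuba1a, with 0.33. The call of Tubb2a was lost without WT 1 (0.116), KO 1 (0.302) or KO 2 (0.271), and that of Tuba1a without any 1 of the arrays (0.0582 to 0.225).

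**Figure D4:**
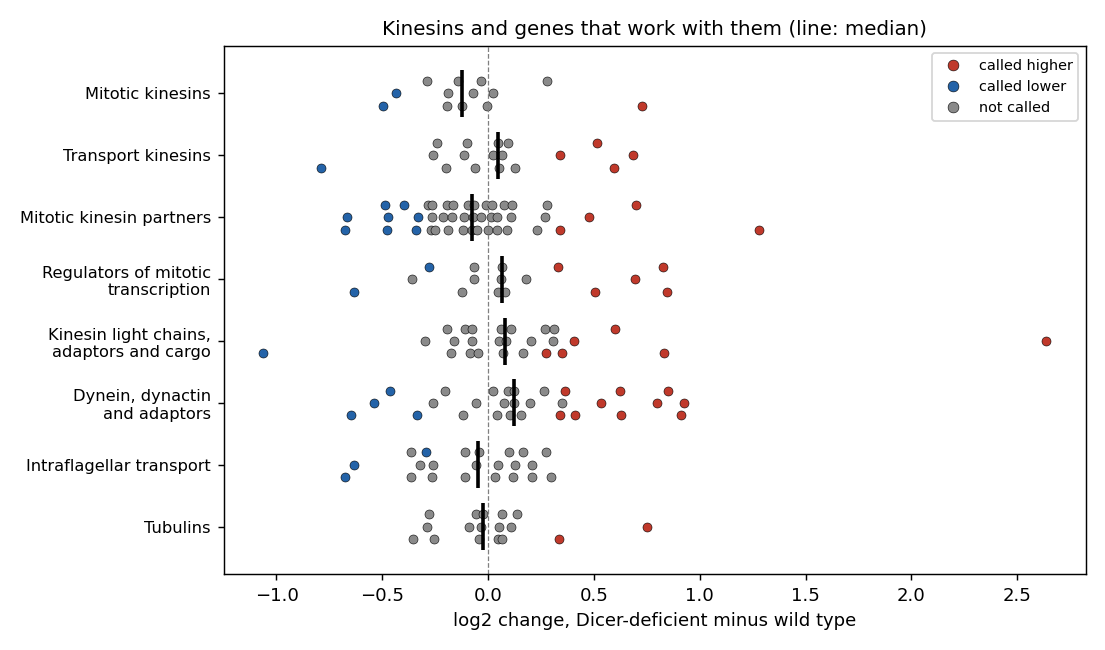
Log2 change, Dicer-deficient minus wild type, of each measured gene (points) for mitotic and transport kinesins and 6 lists of genes that work with them; black lines are medians, red points were called higher and blue points called lower. The dynein list has 10 red and 4 blue points of 29, and Syne2 stands far to the right at 2.64.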

How the data were processed

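The authors deposited 1 table of normalized log2 signals for 35556 probe sets on 5 arrays. Per the labels' protocols, biotinylated cRNA was made from total RNA. The background correction, summarization, normalization and log base are not given in the sources used here; log2 was read from the range of the values. Probe sets were named through the platform annotation: 21789 had 1 symbol, 1621 several and 12146 none. The members, gene lists and roles were chosen with earlier results of these data known.

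The test was limma's lmFit and eBayes (limma 3.58.1, R 4.3.3), fitted without covariates as the Dicer-deficient minus the wild-type mean over 19938 genes, with 3 residual and 4.54 prior degrees of freedom. SEs and 95% intervals are limma's. Each kinesin was accounted for by name, those called with every array's value, and up to 4 called genes were named for each list of genes that kinesins work with. Kifap3, Klc1, Racgap1, Foxm1, Nek6 and Nek9 were named after their values were seen. Exact permutation of 3 against 2 arrays cannot go below 0.1, so none is given. The fit was tested on simulated data. Python 3.11.15 and matplotlib 3.10.9 drew the figures. Alternatives were other scalings, filters, moderation, weights, probe set choices, treat, the replicate block and leaving out each array.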

Additional observations from a re-analysis of the deposited data

How the results depend on the processing

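The calls depended on the few arrays more than on the scaling. The 10 called kinesins kept their direction under every alternative run. Leaving out 1 array in turn gave 972 to 2953 genes called, against 3404, with 2 to 4 kinesins higher (against 5) and 0 to 5 lower (against 5). It gave 0 to 2 mitotic kinesins lower (against 2), 1 to 3 transport kinesins higher (against 4), 0 to 1 transport kinesins lower (against 1) and a transport median of -0.003 to 0.047. A lone Dicer-deficient array is assumed there to vary like the wild-type arrays. Adjusting over all probe sets gave 1958 calls, with 3 kinesins higher, 1 mitotic kinesin lower and 2 transport kinesins higher. Averaging the probe sets of each gene left 1 mitotic kinesin lower. Against a change of 1.2-fold, treat gave 1144 calls, with 2 kinesins higher, 1 lower, 0 mitotic kinesins lower and 1 transport kinesin higher. With the replicate number as a block there were 894 calls, with 2 kinesins higher (Kif23 and Kifc3) and 1 lower (Kif21b). Among these were 0 mitotic kinesins lower and 1 transport kinesin higher. All 3 were near the threshold, with limma adjusted p of 0.05 as rounded for Kif23, 0.0482 for Kifc3 and 0.0421 for Kif21b. Same-numbered arrays deviated together with correlations of only 0.049 and 0.0052. The deviations of 2 Dicer-deficient arrays from their mean mirror each other, so these values cannot decide whether the numbers pair the samples.

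Some changes near 0 turned sign. Kif20a was -0.032 with array weights, -0.055 with the replicate block and -0.080 to 0.130 with 1 array left out. Kif4 was 0.012 after renewed quantile normalization and -0.080 to 0.063 with 1 array left out. Kif6 was -0.054 with the mean of its probe sets and -0.030 to 0.060 with 1 array left out. Racgap1 was 0.020 after renewed quantile normalization and -0.170 to 0.1 with 1 array left out. With 1 array left out, Kif16b ranged from -0.060 to 0.310, Kif18a from -0.115 to 0.055, Kif1c from -0.017 to 0.063 and Kif9 from -0.053 to 0.017. The cause was not tested.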
